A study of Bos taurus with 47 samples.

Results

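In bovine frontal cortex, 219 of the 24616 gene identifiers measured were both abundant and far above every other sampled tissue. They were chosen by their measured levels. A gene was a member when its mean over the 4 frontal cortex libraries was at least 100 FPKM (fragments counted per kilobase of transcript, scaled per 1000000 fragments) and at least 4 times its mean in each of the other 14 tissue labels. The cortex mean reached 100 FPKM for 1100 identifiers, and 19.9% of these met the second condition. The difference between cortex and the other tissues is therefore a condition of membership, and it was not tested.

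All libraries came from Holstein cattle, with 1 library for each tissue and animal, and the labels name no treatment. In 10 tissues the same 4 animals were sampled. They were 2 males, here male A and male B, and 2 females, named after the state of the mammary gland taken from them, the lactating cow and the dry cow. These tissues were frontal cortex, spleen, rumen, muscle, lung, liver, kidney, ileum, heart and adipose tissue. Only the females gave ovary and uterus, with 2 libraries of each. A single library each represented the dry gland, the lactating gland and lymphocytes, the last from a further male. Neither the ages of the animals nor the part of the frontal cortex that was taken is given in the labels.

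The frontal cortex is a layered sheet of neurons and glia. Neurons carry signals along axons and across synapses, oligodendrocytes wrap axons in myelin, astrocytes support synapses and blood vessels, and microglia are the resident immune cells. Many transcripts of synapses and of myelin are made at a high level in brain and at a low level elsewhere, while peripheral nerves, the enteric nervous system of the gut wall and endocrine cells share part of this set. The files do not pair their identifiers with gene names, so no member could be placed in one of these classes, and the tissue label could not be set against marker genes. Members are described by their rank in the cortex, and 2 are given by identifier. In bulk tissue, fewer cells of a type and less RNA per cell cannot be told apart.

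The 219 members had cortex means between 100.1 and 16053 FPKM, with a median of 211 FPKM. In 102 of them the cortex mean was under 200 FPKM, in 36 it was 500 FPKM or more, and in 12 it was 1000 FPKM or more. Together they took 15.5% ± 1.33 of the summed FPKM in cortex (SD, n = 4). In the other labels they took between 0.0793% (the lactating mammary gland, 1 library) and 0.372% (ovary). The ovary libraries differed, with 0.453% in the lactating cow and 0.290% in the dry cow, the latter under the lung mean of 0.309%. The first member alone held 17.6% of the members' cortex FPKM, and the first 12 held 40.2%.

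The second-highest label lay at very different depths below the cortex. Its mean ran from 0.0734 to 358.6 FPKM, with a median of 11.5 FPKM, or from 0.0631% to 24.98% of the cortex level, with a median of 4.95%. It was under 1% of the cortex level for 48 members, 1% to 5% for 62, 5% to 10% for 36, 10% to 20% for 49 and over 20% for 24. No other label reached 1 FPKM for 21 members, all 14 reached it for 38, and the median member reached it in 8 other labels. The members thus ran from transcripts near 0 outside the cortex to transcripts measured in all 15 labels.

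**Figure D1:**
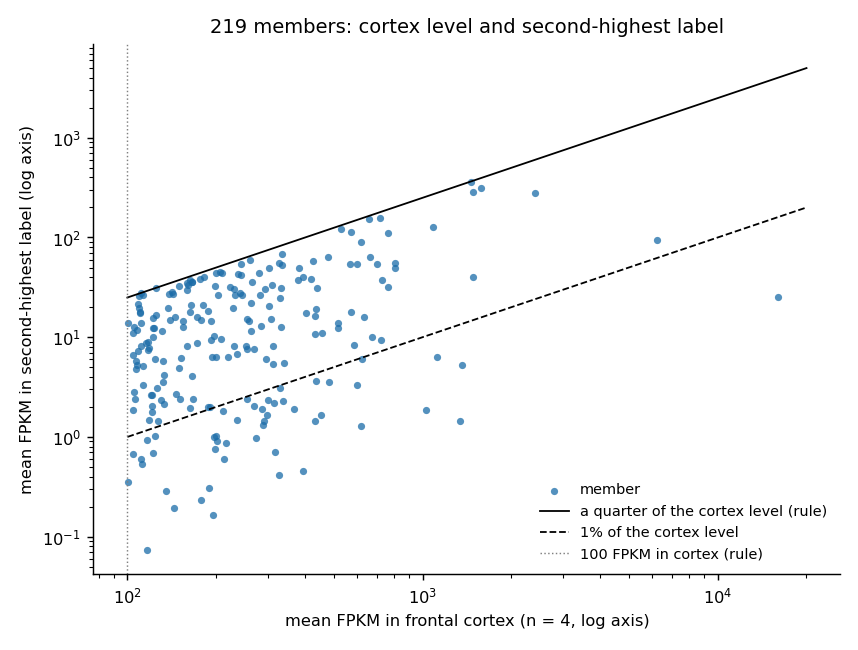
Each point is 1 of the 219 members, with its mean FPKM in frontal cortex (x axis, log scale) and its mean FPKM in the second-highest label (y axis, log scale). The solid line and the dotted line are the conditions of membership and the dashed line marks 1% of the cortex level, with 48 members below it.

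The most abundant member, ENSBTAG00000022890, had 13995 FPKM in male A, 27130 in male B, 12048 in the lactating cow and 11039 in the dry cow. Its second label was muscle, where the 4 libraries lay between 20.7 and 30.2 FPKM. Lymphocytes were next with 24.5 FPKM, and adipose tissue ranged from 8.66 to 32.7 FPKM, so muscle and adipose libraries overlapped. The muscle mean was 0.158% of the cortex mean. Male B stood above the other 3 cortex libraries for this gene, and the 4 heart libraries were the lowest of any tissue, between 1.08 and 2.59 FPKM.

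The member ranked 2 was as even as the first was uneven, with 6225 FPKM ± 220 in cortex (SD, n = 4). Its second label was the dry mammary gland with 93.6 FPKM, followed by lymphocytes with 52.7 FPKM. The member ranked 3 had 2399 FPKM ± 139 in cortex and reached 278 FPKM in heart and 277 FPKM in the lactating mammary gland, so its second place was shared. The member ranked 4 had 1573 FPKM ± 205 in cortex, and in it uterus (315 FPKM), ileum (252), heart (242) and ovary (225) all stood high. The members ranked 8, 9, 10 and 12 had 1032 to 1360 FPKM in cortex and no more than 6.29 FPKM as the mean of any other label.

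The remaining leading members each had a different second tissue. The member ranked 5 had 1487 FPKM ± 208 in cortex and 39.8 FPKM in spleen. The member ranked 6 had 1483 FPKM ± 310 in cortex and 286 FPKM in liver, and the next label, ileum, had 19.8 FPKM. The member ranked 7 had 1464 FPKM ± 235 in cortex and a mean of 359 FPKM in ovary. Its 2 ovary libraries had 49.2 and 668 FPKM, so that mean rests on 1 library. The member ranked 11 had 1083 FPKM ± 167 in cortex, with rumen (129 FPKM) and uterus (122 FPKM) next.

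**Figure D2:**
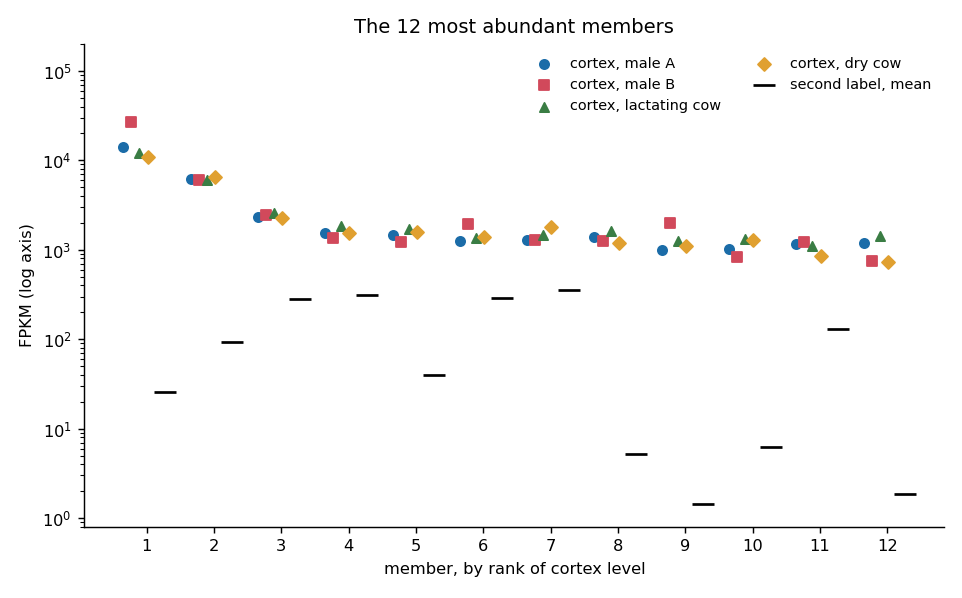
FPKM (log scale) of the 12 most abundant members in the 4 cortex libraries (coloured symbols, 1 per animal) and the mean of their second-highest label (black bars), by rank. The cortex libraries of rank 1 lie between 11039 and 27130 FPKM, and the second labels lie between 1.45 FPKM (rank 9) and 359 FPKM (rank 7).

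Ovary and uterus came second most often, for 32 members each. They were followed by lung (23 members), ileum (22), kidney (20), the dry mammary gland (17), adipose tissue (15), spleen (14), lymphocytes (13), heart (9), muscle (9), rumen (6), liver (5) and the lactating mammary gland (2). Uterus and ovary were each second for 14.6% of the members. Among the 881 other identifiers with at least 100 FPKM in cortex, uterus was the highest non-cortex label for 13.2% and ovary for 9.99%, and among all 16119 identifiers that reached 1 FPKM outside cortex these shares were 7.10% and 6.92%. Ileum was second for 10.05% of the members, against 1.93% of the 881 and 8.31% of the 16119. Heart was second for 4.11% of the members, against 23.3% of the 881 and 6.27% of the 16119. Lymphocytes were second for 5.94% of the members, against 9.08% of the 881 and 22.4% of the 16119. How far the members stood apart thus depended on the set beside them. These shares are descriptions, and their difference was not tested.

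**Figure D3:**
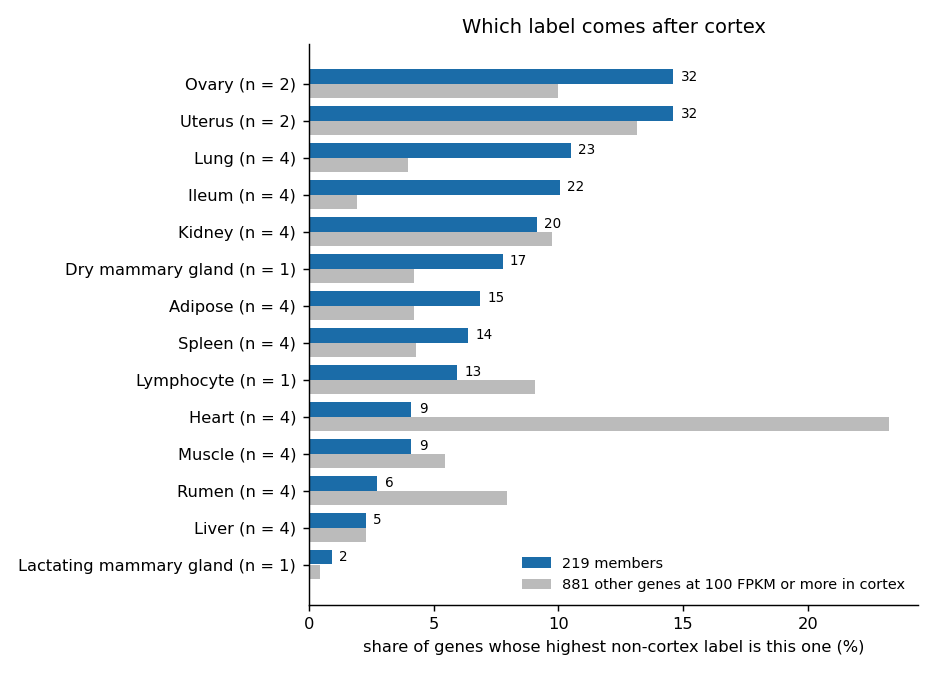
For each non-cortex label, the bars give the share of genes (in %) for which it was the highest label outside cortex, in the 219 members (blue, with the number of members) and in the 881 other identifiers at 100 FPKM or more in cortex (grey). Ovary and uterus lead among the members with 32 each, and heart leads among the other identifiers.

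The level at which a label came second depended on the label. Where ileum was second, its median level was 1.68 FPKM or 0.507% of the cortex level, and 13 of the 22 members were under 1%. Where ovary was second, the median was 19.4 FPKM or 9.32%, and 14 of the 32 members were at 10% or more. Uterus as second label had a median of 10.1 FPKM (7.26%), lung 13.1 FPKM (7.58%), kidney 11.6 FPKM (4.08%), spleen 15.4 FPKM (5.49%) and adipose tissue 5.16 FPKM (4.57%). Liver and rumen came second rarely but high, with medians of 33.2 FPKM (19.3%) and 29.5 FPKM (12.8%).

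Second place was often narrow. The second label was less than 1.5 times the next label for 113 members, at least 2 times the next for 67 and at least 4 times for 20. In 156 members both labels had 2 or more libraries, and the libraries of the 2 labels overlapped for 107 of these. They did not overlap for 49 (31.4%), against 41.1% of 8871 identifiers with at least 1 FPKM in a non-cortex label. Of 123 members whose second label had 4 libraries, 11 took at least 50% of that label's summed FPKM from 1 library, and in 6 of these the library was the adipose tissue of the dry cow. Without that library, adipose tissue was second for 7 members in place of 15.

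To ask in which tissues the members were raised apart from the cortex, each label with 2 or more libraries was compared with the mean of the other 13 non-cortex labels, without the cortex libraries. The comparison used limma on log2(FPKM + 1) and required an adjusted p under 0.05 over all 16120 genes tested and a difference of at least 1 on this scale. Membership sets only an upper limit on these labels. The filter on low values left 198 members. It counts libraries, so the 21 it dropped are not all among the 21 members whose label means stayed under 1 FPKM outside cortex. The member ranked 115 had 1.62 and 1.58 FPKM in 2 lung libraries and passed, with a lung mean of 0.914 FPKM. A member that passed through a single label was bound to differ there, so the counts are descriptions. With no such filter all 219 were tested, and the counts were the same except in ovary (52 higher in place of 51).

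Uterus had the most members called higher, 65 of 198 (32.8%), against 12.2% of all genes tested, and 5 members (2.53%) were lower, against 6.26% of all genes. The clearest was the member ranked 106, with 30.02 and 34.2 FPKM in the uterus libraries and a mean of 1.48 FPKM over the other 13 labels, a log2 difference of 4.22 ± 0.33 (SE). Ovary had 51 members higher (25.8%, against 10.8%) and 10 lower (5.05%, against 6.33%). Leaving out a cow left a single ovary library, so the counts without either cow are not given. Here the member ranked 15 led, with 107 and 115 FPKM in the ovary libraries and a mean of 7.60 FPKM elsewhere (4.49 ± 0.44). Both ovary and uterus were called higher for 26 members (13.1%, against 3.83%). In uterus the members' median difference was 0.47, against 0.08 for all genes, and in ovary it was 0.36, against 0.17.

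Adipose tissue had 37 members higher (18.7%, against 10.8%) and 4 lower (2.02%, against 5.86%). Without the adipose library of the dry cow there were 33 higher (16.7%, against 10.3%) and 10 lower (5.05%, against 6.12%). In the lung, 41 members were higher (20.7%, against 18.4%) and 7 lower (3.54%, against 2.74%), a share near that of all genes. The leading lung member, ranked 87, lay between 11.1 and 38.1 FPKM in lung, with a mean of 0.371 FPKM elsewhere. Ileum had 38 higher (19.2%, against 20% of all genes) and none lower, against 2.07% of all genes. At an unadjusted p under 0.05, 19 of 198 members were lower in ileum, against 2109 of 16120 genes. Without the dry cow 1 member was called lower. The leading ileum member, ranked 69, lay between 27.4 and 40.02 FPKM in ileum, against a mean of 1.59 FPKM elsewhere (4.70 ± 0.24). With these settings the shares called higher in lung and ileum were close to those of all genes. With a pseudocount of 0.1, ileum had 83 members higher (41.9%, against 29.4%). Quantile normalization gave 24 higher (12.1%, against 11%) and 23 lower (11.6%, against 7.32%) in lung. In ileum it gave 15 higher (7.58%, against 10.5%) and 13 lower (6.57%, against 7.45%).

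Kidney had 39 members higher (19.7%, against 17.3%) and 15 lower (7.58%, against 8.78%). After quantile normalization 28 were higher (14.1%, against 12%) and 24 lower (12.1%, against 12.1%). For the members ranked 160, 72 and 48, every kidney library was above every other non-cortex library. Their kidney means were 28.6, 20.5 and 38.5 FPKM, with differences of 4.47 ± 0.10, 4.23 ± 0.09 and 4.16 ± 0.13. The member ranked 72 had a mean of at most 0.477 FPKM (ileum) in any other non-cortex label. Its kidney libraries carried it through the filter on low values, so its difference is a description. Spleen had 29 members higher (14.6%, against 16.1%) and 14 lower (7.07%, against 7.11%). After quantile normalization 19 were higher (9.6%, against 10.6%) and 34 lower (17.2%, against 11.1%). Without the lactating cow 25 were lower (12.8%, against 8.35%), and without the lymphocyte library 23 (11.6%, against 8.86%). The leading spleen member, ranked 52, lay between 47.3 and 53.8 FPKM in spleen and reached at most 9.54 FPKM in any other non-cortex library.

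Liver had 84 members lower (42.4%, against 25.9%) and 10 higher (5.05%, against 8.53%). After quantile normalization 52 were lower (26.3%, against 11.5%) and 14 higher (7.07%, against 11.4%). The member ranked 6 had the largest difference of any member in any label, 6.04 ± 0.22, with liver libraries between 261 and 312 FPKM. Muscle had 60 members lower (30.3%, against 39.3%) and 13 higher (6.57%, against 6.02%). After quantile normalization 10 were lower (5.05%, against 14.7%) and 30 higher (15.2%, against 12.8%). Its leading member, ranked 14, lay between 37.3 and 75.6 FPKM in muscle, and no other non-cortex library exceeded 2.14 FPKM.

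Heart had 24 members higher (12.1%, against 9.75%) and 24 lower (12.1%, against 23.6%). After quantile normalization 32 were higher (16.2%, against 12.2%) and 9 lower (4.55%, against 10.5%). When libraries were rescaled to the same sum 15 were higher (7.5%, against 6.99%) and 34 lower (17%, against 34.3%). Rumen had 20 higher (10.1%, against 9.47%) and 22 lower (11.1%, against 11.5%). After quantile normalization 20 were higher (10.1%, against 9.66%) and 13 lower (6.57%, against 9.71%), and after rescaling 14 (7%, against 7.45%) and 32 (16%, against 15%). The leading rumen member, ranked 130, lay between 11.2 and 25.7 FPKM in rumen and had a mean of 0.584 FPKM elsewhere. Over the 11 labels, 170 of the 198 members were called higher in at least 1 label (85.9%, against 69.4% of all genes tested). They were called in exactly 1 label for 59 members (29.8%, against 27.8%). Quantile normalization moved the median difference of all genes by between -0.52 (ileum) and 0.63 (muscle) on the log2 scale, and rescaling by between -0.19 and 0.20.

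The 4 cortex libraries were close for most members. The coefficient of variation (SD over mean) had a median of 12.8% over the members, against 10.7% over the 881 other identifiers at 100 FPKM or more in cortex. It exceeded 20% for 46 members (21.0%), against 8.29% of the others. The highest cortex library was less than 1.5 times the lowest for 163 members and at least 2 times the lowest for 12. The most even member, ranked 209, lay between 105 and 109.6 FPKM, and the most uneven, ranked 167, had 241 FPKM in male A, 109 in male B, 70.8 in the lactating cow and 109 in the dry cow.

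Male B and the dry cow carried most of the single-library deviations. In male B, 11 members (5.02%) were at least 1.5 times the mean of the other 3 cortex libraries, against 1.25% of the other identifiers at 100 FPKM or more. The corresponding numbers were 5 members in male A (2.28%, against 1.48%), 2 in the lactating cow (0.913%, against 0.341%) and 2 in the dry cow (0.913%, against 1.59%). By that ratio the first member led (27130 FPKM in male B, against a mean of 12360 in the other 3), followed by the members ranked 177 (197 against 98.6 FPKM), 42 (688 against 354 FPKM) and 9 (1989 against 1121 FPKM). The dry cow was at least 1.5 times below the mean of the other 3 for 17 of the 219 members and for 18 of the 881 other identifiers. The numbers were 3 and 8 in male A, 1 and 15 in male B, and 6 and 14 in the lactating cow. Without the first member, the members' share of FPKM was 13.4% in male A, 13.4% in male B, 12.9% in the lactating cow and 12.97% in the dry cow, so that gene carried the higher share of male B (17.4% in all).

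**Figure D4:**
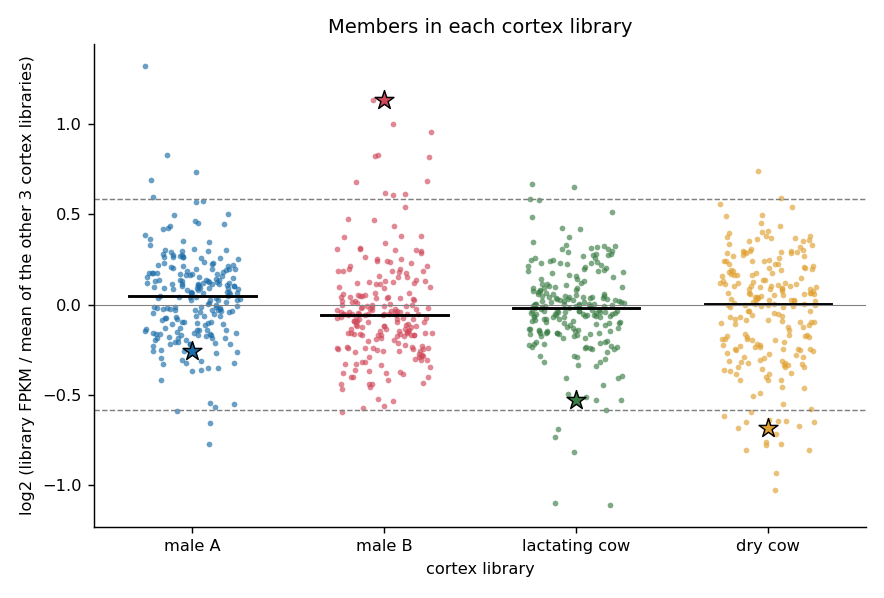
Each point is 1 member in 1 cortex library, as the log2 ratio of its FPKM to the mean of the other 3 cortex libraries. Black bars are medians, stars mark the most abundant member, and dashed lines mark ratios of 1.5 up and down. Male B has 11 members above the upper line, and the dry cow has 17 below the lower line.

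Males and females were compared within the cortex, which the rule for membership did not use. No member was called at an adjusted p under 0.05 with limma over 16503 genes, in 40 libraries of 10 tissues that share 1 estimate of the spread. The share of all genes called was 0.206% higher in males and 0.0424% lower. At an unadjusted p under 0.05 there were 12 members higher in males and 3 lower, or 6.85% of the members, against 6.33% of all genes. The fit on the 4 cortex libraries alone called 0 of 13143 genes, members included. At an unadjusted p under 0.05 it had 20 members higher and 17 lower, so the split of 12 and 3 depended on the fit. These 2 counts are not set against all genes and describe only the split. With 2 animals of each sex, the members' differences ran from -0.53 to 0.97 on the log2 scale, with a median SE of 0.24. The smallest p belonged to the member ranked 171, which had 188 and 129 FPKM in the males and 118 and 71.1 FPKM in the females, a difference of 0.76 ± 0.21 (adjusted p = 0.168). With quantile normalization, 1 member was called higher in males (0.457%, against 0.183% of all genes).

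The 48 members under 1% of the cortex level in every other label were followed library by library. Their FPKM in each library was expressed in ppm (parts in 1000000) of their cortex mean, and the median over the 48 was taken. Ileum held the most as a tissue, with 2153 ppm in male A, 2257 in male B, 1191 in the lactating cow and 1987 in the dry cow. The quartiles over the 48 genes were wide in ileum, from 589 to 3785 ppm in the dry cow, and 2 to 6 of them were at 0. All other libraries with 3 exceptions lay between 0 and 722 ppm.

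Those exceptions were single libraries. In adipose tissue the dry cow had 2697 ppm, while male A had 297, male B 0 and the lactating cow 279. In muscle the lactating cow had 1003 ppm and the other 3 libraries 0 to 309. In rumen male A had 981 ppm and the other 3 libraries 31.2 to 337. In the adipose library of the dry cow none of the 48 genes was at 0, against 14 to 25 in the other adipose libraries. Its quartiles were narrow, from 2107 to 3380 ppm, and the levels of the 48 genes followed their cortex level with a Spearman correlation of 0.81 across genes, which are not replicates. In the muscle library of the lactating cow the quartiles were 774 and 1479 ppm and the correlation was 0.78. In the rumen library of male A the quartiles were 628 and 2255 ppm and the correlation was 0.69. In the 4 ileum libraries the correlation was 0.57 to 0.64. In the remaining non-cortex libraries it ran from 0.21 (liver of male B) to 0.57 (rumen of the dry cow).

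Male B had the lowest of the 4 values in 8 of the 9 non-cortex tissues with 4 libraries and the highest in ileum, noticed after the values were seen. In adipose tissue, muscle and liver its median was 0 ppm, with 25, 26 and 27 of the 48 genes at 0. A relative depth read from the steps of low values was 0.942 to 1.13 in these 9 libraries of male B, against 0.802 to 1.54 in the other 27, and its part in this was not tested.

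**Figure D5:**
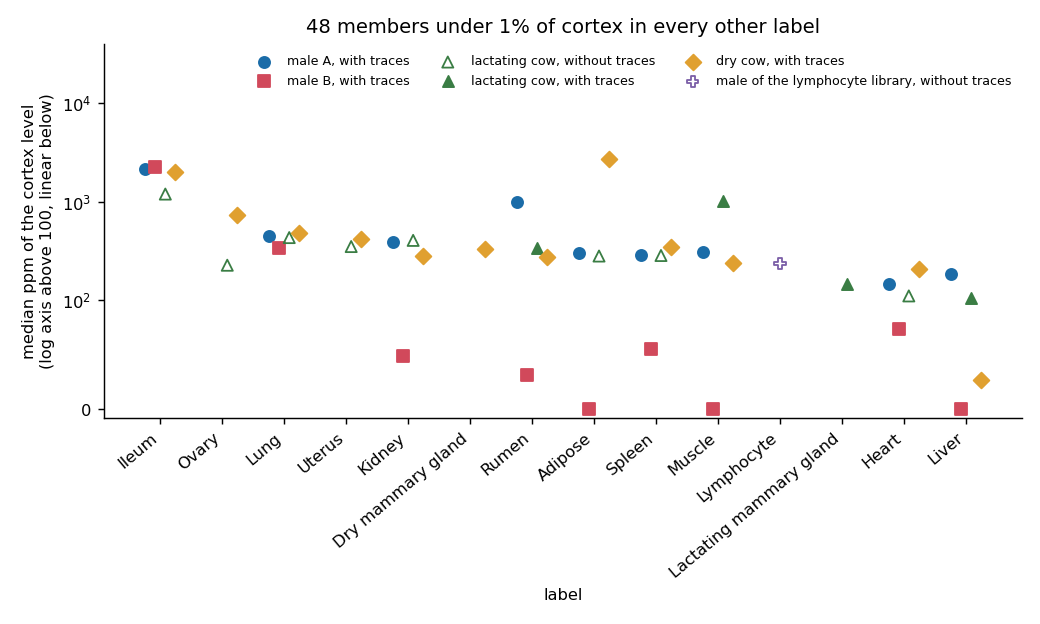
Median level of the 48 members that stay under 1% of cortex in every other label, in ppm of their cortex mean (y axis, log scale above 100 and linear below), for each non-cortex library. Open symbols are the 9 libraries without traces of liver and rumen genes and filled symbols the 34 with them. Ileum lies between 1191 and 2257 ppm, and the adipose library of the dry cow stands at 2697 ppm.

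Most libraries of this series held low levels of transcripts restricted to other tissues. Genes restricted to rumen (10 genes, or 18 restricted to liver where the library was rumen) stood under 50 ppm of their source level in 9 of the 43 non-cortex libraries, which were 8 of the lactating cow and the lymphocyte library. The 9 genes restricted to muscle, which this choice did not use, were at 67.2 ppm in the lung of the lactating cow and at 76.3 ppm in lymphocytes, above the same limit. The 48 cortex members spanned overlapping ranges in the libraries without and with traces. Their medians ran from 110 to 1191 ppm in the 9 libraries, with a middle value of 283, and from 0 to 2697 ppm in the other 34, with a middle value of 290. In ileum, the library without traces had 1191 ppm and the 3 with traces had 1987 to 2257. In spleen these were 283 ppm and 55.2 to 341 ppm, and in kidney 403 ppm and 49.0 to 385 ppm. In ovary they were 225 and 722 ppm, and in uterus 349 and 413 ppm, from a single library each. In adipose tissue, heart and lung the library without traces lay within the range of those with traces.

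Over all members, the libraries without traces were compared with those with traces within tissue, by limma over 16120 genes at an adjusted p under 0.05. Of the 198 members tested, 9 were lower (4.55%, against 7.71% of all genes) and 4 higher (2.02%, against 1.41%). The member ranked 219 fell furthest, by 0.80 ± 0.18 on the log2 scale (adjusted p = 0.00866). When each animal was a term of the model (lymphocytes left out), 0 members were called in either direction. Leaving out male A gave 3 lower (1.52%, against 2.56% of all genes) and 0 higher, and leaving out male B gave 2 lower (1.03%, against 1.31%) and 0 higher. Leaving out the dry cow gave 18 lower (9.38%, against 10.5%) and 1 higher (0.521%, against 1.54%). Leaving out the ileum library of the lactating cow gave 2 lower (1.01%, against 2.83%) and 3 higher (1.52%, against 1.1%). All but 1 of the libraries without traces belong to the lactating cow, who also has 4 non-cortex libraries with traces.

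The member closest to the limit of 4-fold was ENSBTAG00000008942, with 124 FPKM in male A, 116 in male B, 119 in the lactating cow and 141 in the dry cow, against 22.7 to 39.4 FPKM in the 4 rumen libraries. Its rumen mean was 24.98% of the cortex mean. Just outside, an identifier with 101 FPKM in cortex had 25.2% in the dry mammary gland and one with 330 FPKM had 25.3% in muscle. The member closest to the lower limit of abundance had 100.1 FPKM in cortex, and the closest identifier outside had 99.6 FPKM. The lowest cortex library exceeded the highest library of any other tissue for all 219 members, by at least 1.89 times. The rule for membership used the same values, so this is a description and no test.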

How the data were processed

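The authors deposited 1 table of FPKM for 24616 Ensembl gene identifiers, without gene names. Total RNA was sequenced as paired reads of 150 bases after an Illumina TruSeq preparation, per the labels' protocols. Trimmomatic 0.39, STAR, Cufflinks and the assembly UMD3.1 are named, without roles or settings, per the submitters' processing notes. Of 51 columns, 47 were matched to samples by name, among them a muscle column of male A whose code has 1 letter more than its title. The other 4 matched no sample and were left out. No identifier could be matched to a gene name, and the lists of cell type markers by symbol were not used. The FPKM of a cortex library summed to between 576130 and 602121. The number of fragments is unknown, and relative depth was read from the commonest ratio between libraries among values under 0.2 FPKM. An exact 0 can be a failed estimate.

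The members and lists were chosen with earlier results of these data known. Tests used limma 3.58.1 in R 4.3.3 on log2(FPKM + 1), a scale that understates the change of low genes, with a trend in the variance and Benjamini-Hochberg adjustment, for genes that reached 1 FPKM in 2 or more of the fitted libraries. On simulated data with independent noise and no animal effect, 4-fold changes on that scale were planted. They were planted only in genes above a floor on the mean FPKM over all libraries. For the sexes in cortex 180 of 200 (90.0%) were recovered, with 15 false calls. For ileum against other labels, which were set equal to each other, 194 of 199 (97.5%) were recovered, with 2 false calls. Smaller changes were not planted, so recovery of differences the size of the members' sex differences is unknown. Recovery at the low levels that many members had outside cortex was not measured separately. Source genes for traces had at least 2000 FPKM and at least 100 times every other label. Libraries with 1 animal number come from the same animal. Their deviations from the tissue mean had a median correlation of 0.182 (180 pairs), against -0.0630 between animals (540 pairs). Each animal and tissue has 1 library, so p-values rest on the spread between animals within a tissue, pooled over the tissues fitted. In ovary and uterus, with 2 libraries each, that spread comes mostly from other tissues. The main fits did not take into account that the same animals recur across tissues. Members to be described were the 12 most abundant, the 6 nearest the limit of 4-fold, the 4 with the widest spread and those with the largest differences per test, by rank, as names were lacking. Tables and plots were made in Python 3.11.15 with pandas 2.3.3, numpy 2.4.6 and matplotlib 3.10.9. Alternatives were the pseudocount, the filter, 2 scalings, each animal left out, the animal as a term and the libraries with traces only. For the sexes, the cortex libraries were also fitted alone.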

Additional observations from a re-analysis of the deposited data

Results flagged for a closer look

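A set of 39 groups of 4 libraries was screened for 1 library far from the other 3 (20 members in cortex, the 48 cortex-restricted members in 9 tissues, the members' share of FPKM in 10 tissues), and 2 were found. Chance finds about 1 in 20 groups. The median level of the 48 cortex-restricted members in adipose tissue was 2697 ppm in the dry cow, while the next library had 297 ppm and the lowest 0. For the member ranked 2 in cortex, the dry cow had 6550 FPKM and the other 3 libraries 6090 to 6164 FPKM.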

How the results depend on the processing

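With a floor of 50 FPKM there were 352 members, and with 200 FPKM 117. Leaving out 1 cortex library gave 217 to 225 members. Quantile normalization gave 196, of which 179 were among the 219, and rescaling to equal sums gave 296. The second label was as reported for 156 members after quantile normalization, 196 after rescaling and 163 to 208 with 1 animal left out. The dry gland, the lactating gland and lymphocytes each come from 1 animal. Leaving that animal out removed the label, which forced part of the change. Of the label counts, those with a pseudocount of 0.1 follow, each with its share and that of all genes. Members called lower were 16 in adipose tissue (8.08%, against 11%), 53 in heart (26.8%, against 36.9%) and 3 in ileum (1.515%, against 3.83%). They were 39 in kidney (19.7%, against 14.5%), 131 in liver (66.2%, against 40.9%), 20 in lung (10.1%, against 5.01%) and 97 in muscle (48.99%, against 54.2%). They were 17 in ovary (8.59%, against 9.79%), 46 in rumen (23.2%, against 19.7%), 41 in spleen (20.7%, against 11.3%) and 12 in uterus (6.06%, against 9.27%). Members called higher were 83 in ileum (41.9%, against 29.4%), 20 in muscle (10.1%, against 7.39%), 80 in ovary (40.4%, against 15.8%) and 33 in rumen (16.7%, against 12.8%). With quantile normalization, 9 were lower in heart, 24 in kidney, 52 in liver and 13 in rumen. The split of higher and lower became 15 and 13 in ileum, 24 and 23 in lung, 30 and 10 in muscle and 19 and 34 in spleen. With rescaled libraries 15 were higher in heart. The shares of all genes beside these counts from quantile normalization and rescaling are given above. Members lower in spleen were 25 with the replicate block (animal as a term, lymphocytes left out) and 23 in the same libraries without it. In libraries with traces only they were 27. The 25 and the 27 are not set against all genes and describe only the change of setting. In the libraries without lymphocytes, the block moved no label count by over 1.5 times. Without the adipose library of the dry cow, 10 were lower in adipose tissue. With 1 animal left out, members lower ran from 4 to 10 in adipose tissue, 0 to 1 in ileum, 6 to 11 in ovary and 11 to 25 in spleen. Between the sexes in cortex, 1 member was higher in males with quantile normalization. Leaving out 1 of the cortex animals left 1 cortex library of a sex, so those counts are not given. Between libraries without and with traces, the higher calls were 1 with a pseudocount of 0.1 (0.505%, against 1.22% of all genes). They were 2 with no filter (0.913%, against 1.09%) and 2 after rescaling (1%, against 0.836%). With the replicate block they were 0, and with 1 animal left out 0 to 4. The lower calls were 15 after rescaling (7.5%, against 11.9%) and 2 after quantile normalization (1.01%, against 2.64%). They were 0 with the replicate block, 2 when the lactating cow's ileum was left out and 2 to 18 with 1 animal left out. That comparison could not be fitted without the lactating cow. The alternatives that leave out 1 library of adipose tissue or ileum, or lymphocytes without the block, were chosen after seeing the data. The cause of these changes was not tested. FPKM give no fragment counts, so what depth limits among low values, the exact zeros included, is unknown.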
